A study of Rattus norvegicus with 12 samples.

Results

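The 9 most abundant rows of the expression table, out of 28959, carried the rat Ensembl IDs listed for mRNAs of the mitochondrial DNA: mt-Nd1 (ENSRNOG00000030644), mt-Nd2 (ENSRNOG00000031033), mt-Nd4 (ENSRNOG00000029707), mt-Nd5 (ENSRNOG00000029971), mt-Cyb (ENSRNOG00000031766), mt-Co1 (ENSRNOG00000034234), mt-Co2 (ENSRNOG00000030371), mt-Co3 (ENSRNOG00000030700) and mt-Atp6 (ENSRNOG00000031979). They were chosen by their mean level over all libraries, so their high level is a description and not a finding. The pairing of IDs with symbols came with that list, because 0 IDs of the table could be matched in the reference annotation used here. Hippocampus RNA came from Sprague Dawley rats, given as 6 to 7 weeks old, in 4 groups of 3 libraries. Whether that age was at the start of the schedule or at tissue collection was not established here. CUMS-Alb rats had 5 weeks of chronic unpredictable mild stress (CUMS), a schedule of changing mild stressors used as a rat model of depression, and albiflorin, a monoterpene glycoside of peony root, at 7 mg/kg/d for the last 7 days. CUMS-Flx rats had the same stress and fluoxetine, a serotonin reuptake inhibitor, for the same 7 days, at 10 mg/kg/d by the sample labels and 7 mg/kg/d by the series description. CUMS-Sal rats had the stress and saline, and Ctrl-Sal rats had saline and no stress. The labels do not say whether each library was a separate animal, so each p-value reflects the spread among the libraries at hand, and that spread may in part be technical.

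Mitochondrial DNA is transcribed inside the organelle as long precursors that are cut into separate RNAs, and its mRNAs encode only subunits of the respiratory chain and of ATP synthase. The remaining subunits of those complexes, and the polymerase and nucleases that make the mRNAs, are encoded in the nucleus. Neurons use much of their ATP for ion pumping at synapses, and brain RNA is rich in mitochondrial transcripts. Mt-Nd1, mt-Nd2, mt-Nd4 and mt-Nd5 encode membrane subunits of complex I, which takes electrons from NADH. Mt-Cyb encodes cytochrome b of complex III. Mt-Co1, mt-Co2 and mt-Co3 encode the core of complex IV, which passes electrons to oxygen, and mt-Atp6 encodes the proton channel subunit of ATP synthase.

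The libraries held 14735953 to 18109623 assigned reads. Each of the 9 mRNAs had between 135104 and 1038566 reads in a library, a counting error of 0.272% down to 0.0981%, so counting adds little to the spread described here. Ctrl-Sal replicate 2 stood apart from the other libraries over all tested rows: its median Pearson correlation with them was 0.977, against 0.989 to 0.992 for the other 11. The reading strand and the treatment of nuclear copies of mitochondrial DNA and of overlapping mitochondrial genes are not stated in what was used here, so reads shared with such copies or neighbours are uncertain. In whole tissue, fewer cells rich in mitochondria and less mitochondrial RNA per cell cannot be told apart. Markers of hippocampal cell types could not be read from the table because it holds IDs only, so the labelled tissue was not checked against them.

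In FPKM, which scales reads by gene length and by library size, mt-Co1 was the highest of the 9, with a mean of 29436 FPKM over the 12 libraries, and it was above the next in 12 of 12 libraries. Mt-Co2 at 21899.8 FPKM, mt-Atp6 at 20738 and mt-Co3 at 20194 followed closely. These 3 were not cleanly ordered: mt-Co2 was above mt-Atp6 in 10 of 12 libraries, and mt-Atp6 above mt-Co3 in 8 of 12. Mt-Nd2 came next at 18603 FPKM, below mt-Co3 in 11 of 12 libraries. Mt-Nd4 at 13595, mt-Nd1 at 12709 and mt-Cyb at 12598 FPKM formed the next set. Mt-Nd4 was above mt-Nd1 in all 12 libraries, whereas the order of the means of mt-Nd1 and mt-Cyb was met in only 4 of 12. Mt-Nd5 was the lowest of the 9 at 6027 FPKM, below mt-Cyb in 12 of 12 libraries. The 3 complex IV mRNAs and mt-Atp6 thus had the 4 highest levels, and those of the complex I mRNAs ran from 6027 to 18603 FPKM. Just outside the 9, the tenth row by level, ENSRNOG00000029042, had a mean of 5394 FPKM. Mt-Nd5 was above it in 11 of 12 libraries, the exception being CUMS-Flx replicate 1, with 6224 FPKM for mt-Nd5 and 6574 for that row.

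**Figure D1:**
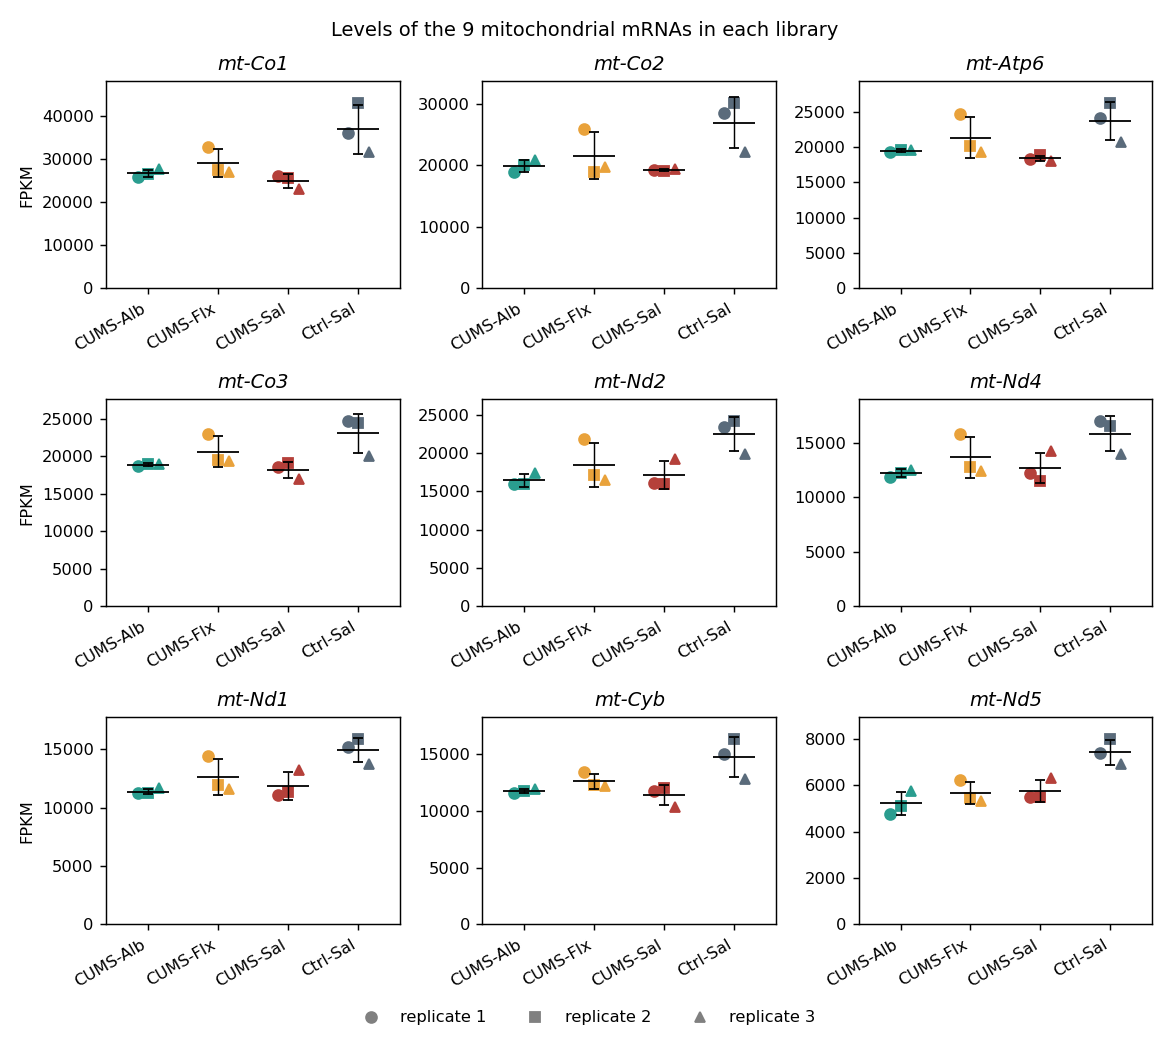
Level of each of the 9 mitochondrial mRNAs in every library, in FPKM on axes that start at 0, by group. Points are the 3 libraries of a group, long bars the mean and whiskers the SD; all 9 have their highest group mean in Ctrl-Sal, and CUMS-Flx replicate 1 lies above the other CUMS-Flx libraries in all 9 panels.

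Together the 9 mRNAs took a smaller share of the assigned reads in the stressed groups than in Ctrl-Sal. Among stressed rats the share was 14.6%, 15.01% and 15.6% with albiflorin (CUMS-Alb), 18.8%, 15.5% and 15.3% with fluoxetine (CUMS-Flx) and 14.8%, 14.7% and 15.04% with saline (CUMS-Sal). The unstressed Ctrl-Sal libraries had 20.4%, 22.0% and 17.4%. All 3 CUMS-Sal libraries and all 3 CUMS-Alb libraries lay below every Ctrl-Sal library, while CUMS-Flx replicate 1 lay inside the Ctrl-Sal range. The spread was also unequal: the SD was 0.485 points in CUMS-Alb, 1.99 in CUMS-Flx, 0.157 in CUMS-Sal and 2.32 in Ctrl-Sal (n = 3 each). Mt-Co1 alone took a mean of 4.55% of all reads over the 12 libraries, and mt-Nd5 1.10%.

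The share was tested in 6 comparisons by exact two-sided permutation of the 3 against 3 libraries, in which the smallest possible p is 0.1. CUMS-Sal averaged 14.9% ± 0.157 and Ctrl-Sal 19.95% ± 2.32 (SD, n = 3 each), a difference of -5.09 points with an exact p of 0.1 and 0.2 after Benjamini-Hochberg adjustment over the 6 comparisons. CUMS-Alb, at 15.1%, differed from Ctrl-Sal by -4.88 points (exact p = 0.1, adjusted 0.2), and CUMS-Flx, at 16.5%, differed from Ctrl-Sal by -3.41 points (exact p = 0.2, adjusted 0.3). Both drug groups were set against the same Ctrl-Sal libraries. The share in CUMS-Flx exceeded that in CUMS-Sal by 1.68 points without overlap (exact p = 0.1, adjusted 0.2). That difference was 0.534 points without CUMS-Flx replicate 1, still without overlap. CUMS-Alb and CUMS-Sal differed by 0.213 points (exact p = 0.7), and CUMS-Alb and CUMS-Flx by -1.46 points (exact p = 0.3, adjusted 0.36). No difference in share passed a threshold of 0.05, which 3 against 3 libraries could not reach. Without Ctrl-Sal replicate 2, the CUMS-Sal minus Ctrl-Sal difference was -4.06 points, with the groups still apart.

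**Figure D2:**
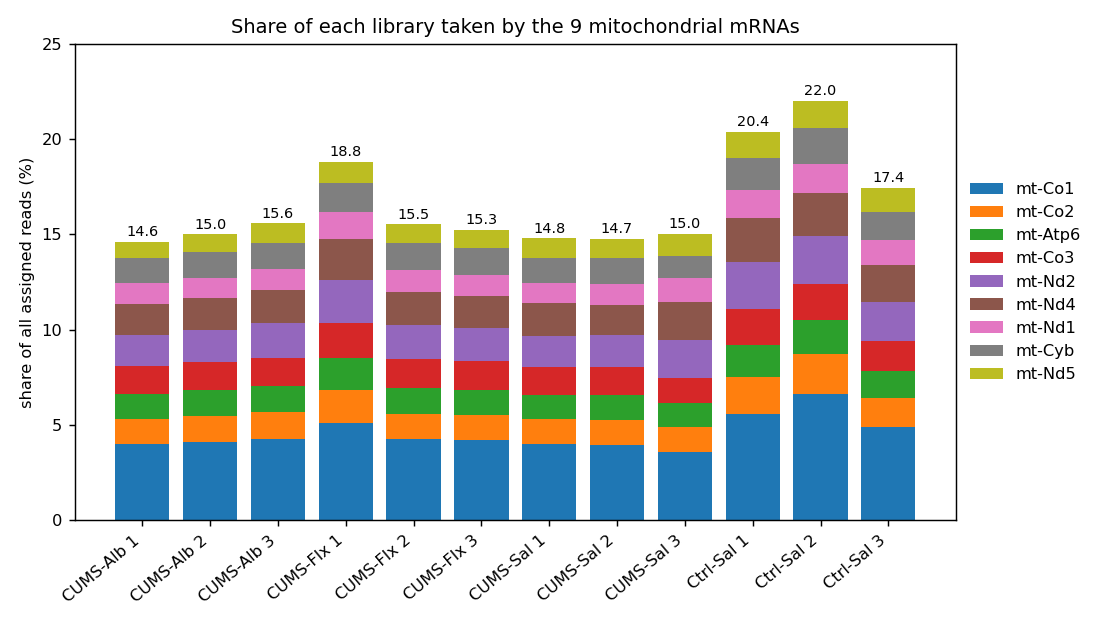
Share of all assigned reads (%) taken by the 9 mitochondrial mRNAs in each of the 12 libraries, stacked by mRNA, with the sum above each bar. The Ctrl-Sal bars reach 17.4% to 22.0%, and among the stressed libraries only CUMS-Flx replicate 1, at 18.8%, enters that range.

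Stress was examined in rats given saline, CUMS-Sal against Ctrl-Sal. The 9 mRNAs were all lower on average in CUMS-Sal, by 0.32 to 0.56 on the log2 scale (-0.32 for mt-Nd4, -0.56 for mt-Co1), and 6 of the 9 passed the test. The test was limma's moderated test on log2(FPKM + 0.5) over 15253 rows, and an mRNA counted as called when its p, adjusted over all rows by Benjamini-Hochberg, was under 0.05. Of all rows tested, 9.19% were called and 1.14% were called lower. In 8 of the 9 mRNAs every CUMS-Sal library lay below every Ctrl-Sal library, which 5.85% of all rows did. The median log2 difference was -0.36 over the 9 mRNAs and 0.10 over all rows tested, and 0.00 over the 91 next most abundant rows, of which 7 were called lower and 3 higher. Those 91 rows were not matched to gene names, so they may hold further mRNAs of the mitochondrial DNA.

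Of the complex IV mRNAs, mt-Co1 and mt-Co2 had the largest differences of the 9, and mt-Co3 one of the smaller ones. Mt-Co1, the catalytic subunit, had 25978, 25642 and 23162 FPKM in CUMS-Sal, against 36115, 42959 and 31708 in Ctrl-Sal. It fell by a log2 difference of -0.56 ± 0.11 (SE; limma, adjusted p = 0.0250), to a fold of 0.679, and the highest CUMS-Sal library lay below the lowest Ctrl-Sal library. Mt-Co2, which carries the copper site that takes electrons from cytochrome c, had 19169, 19032 and 19455 FPKM in CUMS-Sal, against 28539.8, 30083 and 22209 in Ctrl-Sal. Its CUMS-Sal libraries were nearly equal and its Ctrl-Sal libraries were not. The log2 difference of mt-Co2 was -0.48 ± 0.13 (SE; limma, adjusted p = 0.0413). Mt-Co3 had 18508, 19062 and 16994 FPKM in CUMS-Sal, against 24660.5, 24499.8 and 20039 in Ctrl-Sal, again without overlap (log2 difference -0.34 ± 0.10, limma adjusted p = 0.0473).

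For complex III, mt-Cyb had 11756, 11979 and 10375 FPKM in CUMS-Sal, against 15001, 16282 and 12825 in Ctrl-Sal, and its log2 difference was -0.37 ± 0.09 (SE; limma, adjusted p = 0.0366). For ATP synthase, mt-Atp6 had 18336, 18831 and 18033 FPKM in CUMS-Sal, against 24068, 26216 and 20783 in Ctrl-Sal, with a log2 difference of -0.36 ± 0.10 (SE; limma, adjusted p = 0.0467). Neither mRNA overlapped between the groups.

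Of the 4 complex I mRNAs, mt-Nd5 alone was called. It had 5507, 5501 and 6330.4 FPKM in CUMS-Sal, against 7406, 7988 and 6912 in Ctrl-Sal (log2 difference -0.36 ± 0.09, limma adjusted p = 0.0387). Mt-Nd1 had 11055, 11302 and 13259 FPKM in CUMS-Sal, against 15189, 15843 and 13765 in Ctrl-Sal (log2 -0.33 ± 0.10, limma adjusted p = 0.0511). Mt-Nd2 had 16049.7, 16021 and 19204 FPKM in CUMS-Sal, against 23326, 24132 and 19897 in Ctrl-Sal (log2 -0.39 ± 0.12, limma adjusted p = 0.0530). In each of these 3 mRNAs, CUMS-Sal replicate 3 was the highest of its group and Ctrl-Sal replicate 3 the lowest of the controls, and the groups did not overlap. Mt-Nd4 was the one mRNA whose groups overlapped, with 12252, 11529 and 14240.2 FPKM in CUMS-Sal, against 16959, 16544 and 13966 in Ctrl-Sal (log2 -0.32 ± 0.11, limma adjusted p = 0.0793). The log2 differences of the 4 complex I mRNAs lay between -0.39 and -0.32, whether called or not.

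These calls lay close to the threshold. Leaving out CUMS-Sal replicate 1, 2 or 3 left 1, 0 and 0 of the 9 mRNAs called in that order, and leaving out Ctrl-Sal replicate 1, 2 or 3 left 1, 1 and 9. Calls over all rows swung too, from 1402 with all libraries. They were 332, 1 and 24 without CUMS-Sal replicate 1, 2 or 3, and 1294, 370 and 2634 without Ctrl-Sal replicate 1, 2 or 3. Directions did not change with any left-out library: without Ctrl-Sal replicate 2, the library that stood apart, the 9 log2 differences ran from -0.44 to -0.28, and only mt-Co1 was called (limma adjusted p = 0.0360). Without CUMS-Sal replicate 3 they ran from -0.51 to -0.29, with limma adjusted p of 0.0688 to 0.128. Quantile normalization, which gives all libraries the same values at each rank and so removes most of a difference at the top of the table, left differences of -0.03 to 0.06 and no call.

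**Figure D3:**
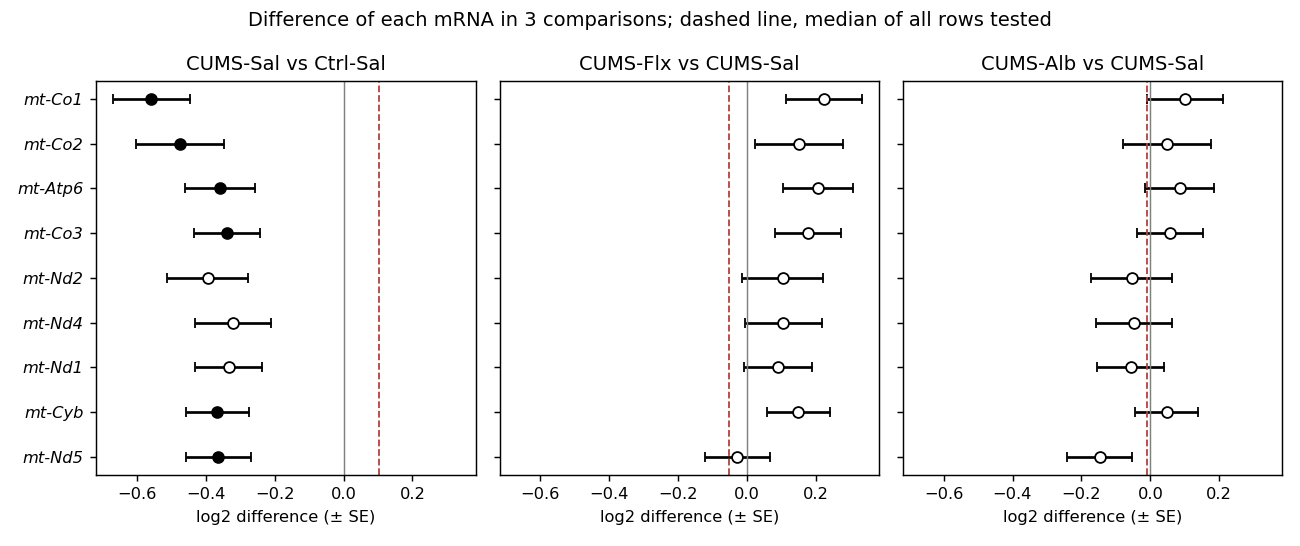
Log2 difference of each of the 9 mitochondrial mRNAs in 3 comparisons, with whiskers of ± SE from limma. Filled points have an adjusted p under 0.05 and the red dashed line is the median of all rows tested; all 9 points lie left of 0 in CUMS-Sal against Ctrl-Sal, and no point is filled in the drug comparisons.

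Because the 9 mRNAs take 14.6% to 22.0% of a library, FPKM of every other row depends on them. Values were therefore also scaled to the reads outside the 9. On that scale the median log2 difference of all rows between CUMS-Sal and Ctrl-Sal was 0.02 in place of 0.10. The differences of the 9 mRNAs grew, to between -0.65 for mt-Co1 and -0.41 for mt-Nd4, with 7 of the 9 called. That growth is fixed by the lower share of the 9 in CUMS-Sal, which sets the scaling, and is not a separate result. The balance of calls over all rows moved as well, with 434 called higher and 277 lower on that scale, against 1228 higher and 174 lower on the deposited scale. With every library centred on its median deviation, the 9 differences ran from -0.66 to -0.42, with 8 of the 9 mRNAs called among 364 rows higher and 379 lower. The reads recovered from the FPKM were tested with limma-voom and TMM scaling. All 9 mRNAs were called lower there, at log2 differences of -0.66 to -0.43, among 622 rows higher and 469 lower. The number of rows in that fit is not given here, so the share of its rows called is not known. Centring and TMM also shift all rows of a library alike, so these larger differences are not separate results either.

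Fluoxetine was compared with saline in stressed rats. None of the 9 mRNAs was called between CUMS-Flx and CUMS-Sal, nor was any of the 15253 rows (0%). At an unadjusted p under 0.05 there were 0 of the 9 and 1523 of all rows (9.98%), and limma-voom on recovered reads called 0 rows. The log2 differences of the 9 ran from -0.03 for mt-Nd5 to 0.22 for mt-Co1, with a median of 0.15 beside -0.05 over all rows. Mt-Co1 had 32891, 27560.1 and 27061 FPKM in CUMS-Flx, against 25978, 25642 and 23162 in CUMS-Sal (log2 0.22 ± 0.11, limma adjusted p = 0.523). Mt-Atp6 had 24632, 20133 and 19277 FPKM in CUMS-Flx, against 18336, 18831 and 18033 in CUMS-Sal (log2 0.21 ± 0.10, limma adjusted p = 0.520). Both mRNAs were higher in every CUMS-Flx library than in any CUMS-Sal library, and CUMS-Flx replicate 1 was far above the other CUMS-Flx libraries.

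Mt-Co3, with 22991, 19566 and 19321 FPKM in CUMS-Flx, and mt-Cyb, with 13369.9, 12240.1 and 12158, also lay above all CUMS-Sal libraries, so that 4 of the 9 did not overlap in that direction, as did 4.25% of all rows. Mt-Co2 had 25924, 18912 and 19789 FPKM in CUMS-Flx, of which replicate 2 was below all 3 CUMS-Sal libraries. The 4 complex I mRNAs overlapped between the groups with all libraries: mt-Nd1 had 14414, 11933 and 11609.8 FPKM in CUMS-Flx, mt-Nd2 21791, 17069 and 16479.8, mt-Nd4 15825, 12804 and 12376, and mt-Nd5 6224, 5449 and 5335. For mt-Nd1, mt-Nd2 and mt-Nd4 that overlap was with CUMS-Sal replicate 3 alone, since all CUMS-Flx libraries lay above CUMS-Sal replicates 1 and 2, while mt-Nd5 in CUMS-Flx replicates 2 and 3 was below all 3 CUMS-Sal libraries. As a part of the reads of the 9, a sum chosen after the values were seen, the complex I mRNAs held 36.5% in CUMS-Flx and 38.4% in CUMS-Sal. That difference was -1.90 points (exact permutation p = 0.6, adjusted over 6 comparisons 0.84), and 0.105 points without CUMS-Sal replicate 3. Without CUMS-Flx replicate 1, the 9 log2 differences from CUMS-Sal ran from -0.10 to 0.13, with a median of 0.01.

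Albiflorin was compared with saline in the same way. None of the 9 mRNAs passed the test between CUMS-Alb and CUMS-Sal, nor did any other row (0% called). The limma adjusted p was 0.9996 for each of the 9. At an unadjusted p under 0.05 there were 0 of the 9 and 559 of all rows (3.66%), and limma-voom called 0 rows. The log2 differences ran from -0.15 ± 0.09 for mt-Nd5 to 0.10 ± 0.11 for mt-Co1 (SE), with a median of 0.05 beside -0.01 over all rows. Mt-Nd5 had 4787, 5125 and 5756 FPKM in CUMS-Alb, against 5507, 5501 and 6330.4 in CUMS-Sal. Mt-Co1 had 25914, 26619.6 and 27624 FPKM in CUMS-Alb, and its replicate 1 was below the highest CUMS-Sal library. Mt-Atp6 was the one mRNA without overlap, at 19241, 19655 and 19644 FPKM in CUMS-Alb and 18336, 18831 and 18033 in CUMS-Sal; 4.75% of all rows were higher without overlap.

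The CUMS-Alb libraries were close to one another for most of the 9. Mt-Co3 had 18677, 19017 and 18995 FPKM there, mt-Cyb 11554, 11733 and 11898, mt-Nd1 11231, 11263 and 11639, and mt-Nd4 11859, 12253 and 12535. Mt-Nd5, with the values given above, mt-Co2, at 18836, 20013 and 20834 FPKM, and mt-Nd2, at 15896, 15911 and 17455, were wider apart for their level.

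The drugs were also compared with each other, at doses that the labels give differently and so not as a matched dose. CUMS-Alb was lower than CUMS-Flx on average in all 9 mRNAs, at log2 differences of -0.16 for mt-Nd2 to -0.10 for mt-Co2 and mt-Cyb, but none of the 9 was called (limma adjusted p = 0.955 to 0.956), beside 1 called row in all (0.00656%). At an unadjusted p under 0.05 there were 0 of the 9 and 759 of all rows (4.98%), and limma-voom called 0 of the 9, beside 1 row in all. Mt-Co3 and mt-Cyb were lower in every CUMS-Alb library than in any CUMS-Flx library, as were 3.13% of all rows. Without CUMS-Flx replicate 1 the 9 differences ran from -0.06 to 0.04.

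Against the unstressed rats, each drug group was tested with the same 3 Ctrl-Sal libraries that CUMS-Sal was tested with. In CUMS-Alb all 9 mRNAs lay below every Ctrl-Sal library, as did 6.37% of all rows, and 1 of the 9 was called lower, where 2.5% of all rows were called and 0.321% called lower. The called mRNA was mt-Nd5, at 5223 ± 492 FPKM in CUMS-Alb and 7435 ± 539 FPKM in Ctrl-Sal (SD, n = 3 each; log2 difference -0.51 ± 0.09 SE, limma adjusted p = 0.0391). Mt-Co1 averaged 26719 ± 860 FPKM in CUMS-Alb and 36927 ± 5669 in Ctrl-Sal (SD, n = 3 each), with a log2 difference of -0.46 ± 0.11 and a limma adjusted p of 0.0505. The other 7 had log2 differences of -0.45 to -0.27 and limma adjusted p of 0.0508 to 0.109. Limma-voom on recovered reads called 7 of the 9 lower, among 283 rows higher and 213 lower, out of a number of rows not given here. When values were rescaled to the reads outside the 9, none of the 9 was called, beside 20 rows in all. No mRNA was called without any 1 of the CUMS-Alb replicates 1, 2 or 3 or without Ctrl-Sal replicate 2, and all 9 were called without Ctrl-Sal replicate 3. Over all rows, 381 were called with all libraries and 1, 0 and 0 without CUMS-Alb replicate 1, 2 or 3. Without Ctrl-Sal replicate 2 the rows called were 6, and without Ctrl-Sal replicate 3 they were 2356.

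In CUMS-Flx none of the 9 was called against Ctrl-Sal, beside 8 rows of all tested (0.0524%). The smallest adjusted p belonged to mt-Nd5, at 5669.5 ± 484 FPKM in CUMS-Flx and 7435 ± 539 in Ctrl-Sal (SD, n = 3 each; log2 difference -0.39 ± 0.09 SE, limma adjusted p = 0.108). Mt-Nd5 was also the only one of the 9 with every CUMS-Flx library below every Ctrl-Sal library, as in 5.75% of all rows. At an unadjusted p under 0.05 there were 6 of the 9 mRNAs and 2666 of all rows (17.5%), and limma-voom called 0 of the 9, beside 67 rows in all. Mt-Atp6 had the smallest difference, with a log2 value of -0.15 ± 0.10. Without Ctrl-Sal replicate 3, 2 of the 9 were called, and rows called over the whole table rose from 8 to 543. Whether the difference from Ctrl-Sal was smaller in CUMS-Flx than in CUMS-Sal is the comparison of CUMS-Flx with CUMS-Sal already given, in which no mRNA was called.

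The reads of the 9 mRNAs were also divided among them, each mRNA as a part of the sum of the 9 in its library. Whether this division moves with the share of the library was not tested; Ctrl-Sal replicate 2 had both the largest share of the library, at 22.0%, and the largest part of mt-Co1, at 30.1%. Mt-Co1 held 23.8% to 30.1% of the reads of the 9 in a library, the largest part of any, and mt-Nd5 5.99% to 7.70%. The division was much alike in most libraries. Summed over the mRNAs that gained, a library departed from the mean division by a median of 1.27 percentage points, and by 5.52 points in CUMS-Sal replicate 3 and 3.21 points in Ctrl-Sal replicate 2.

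In CUMS-Sal replicate 3 all 4 complex I mRNAs held their highest part of any library, at 8.42% for mt-Nd1, 13.3% for mt-Nd2, 13.0% for mt-Nd4 and 7.70% for mt-Nd5. Mt-Co1, at 23.8%, and mt-Cyb, at 7.89%, held their lowest. Ctrl-Sal replicate 2 had the largest part for mt-Co1, at 30.1%, and the smallest for mt-Nd1, at 6.87%, mt-Nd4, at 10.4%, and mt-Co3, at 8.72%. Summed, the complex I mRNAs held 42.4% of the mitochondrial reads in CUMS-Sal replicate 3 and 35.2% to 37.7% in the other 11 libraries. This sum was chosen after the values were seen. Between groups it averaged 36.0% ± 0.505 in CUMS-Alb, 36.5% ± 0.452 in CUMS-Flx, 38.4% ± 3.48 in CUMS-Sal and 36.7% ± 1.27 in Ctrl-Sal (SD, n = 3 each). None of the 6 comparisons of it had an exact permutation p under 0.2 (adjusted over 6, 0.84 or more), and CUMS-Sal minus Ctrl-Sal was 1.75 points with all libraries and -0.25 points without CUMS-Sal replicate 3.

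**Figure D4:**
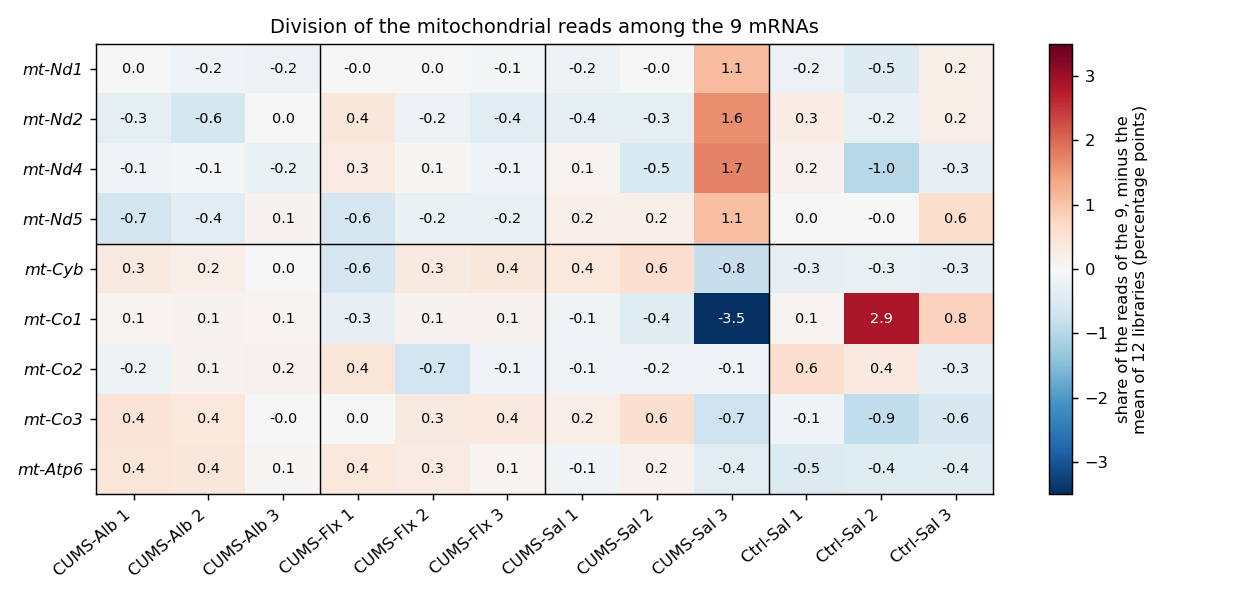
Division of the mitochondrial reads among the 9 mRNAs: each cell is an mRNA's part of the reads of the 9 in a library, minus its mean over the 12 libraries, in percentage points (red above, blue below). In CUMS-Sal replicate 3 the 4 complex I mRNAs above the line are all raised and mt-Co1 is lowered, while Ctrl-Sal replicate 2 has the largest part of mt-Co1.

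Mt-Atp6 held a larger part of the mitochondrial reads in every stressed library than in any unstressed one. Its part was 8.96%, 8.92% and 8.58% in CUMS-Alb libraries, 8.91%, 8.83% and 8.61% in CUMS-Flx libraries, and 8.44%, 8.69% and 8.17% in CUMS-Sal. In Ctrl-Sal it was 8.04%, 8.11% and 8.11%. The 3 unstressed libraries lay within 0.1 point of each other and CUMS-Sal replicate 3 came nearest to them. Exact permutation p was 0.1, the smallest possible, in each of the 3 comparisons with the shared Ctrl-Sal libraries, and 0.3, 0.3 and 0.45 for CUMS-Alb, CUMS-Flx and CUMS-Sal after adjustment over the 9 mRNAs. The level of mt-Atp6 thus had one of the smaller differences from Ctrl-Sal, while its part of the mitochondrial reads was higher.

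The part of mt-Nd5 was lower in both drug groups than in CUMS-Sal. It averaged 6.33% ± 0.391 in CUMS-Alb, 6.29% ± 0.208 in CUMS-Flx, 7.11% ± 0.510 in CUMS-Sal and 6.85% ± 0.352 in Ctrl-Sal (SD, n = 3 each). Neither drug group overlapped with CUMS-Sal (exact permutation p = 0.1 each; adjusted 0.45 for CUMS-Alb and 0.6 for CUMS-Flx), although both are set against the same CUMS-Sal libraries. By library CUMS-Sal held 6.82%, 6.83% and 7.70%, the last in replicate 3, and CUMS-Alb replicate 3 came nearest below, at 6.76%. The part of mt-Nd5 in CUMS-Flx also lay below all Ctrl-Sal libraries. The part of mt-Co3 was higher than in any Ctrl-Sal library in CUMS-Alb, at 9.83% ± 0.246, and in CUMS-Flx, at 9.79% ± 0.191, beside 9.07% ± 0.385 in Ctrl-Sal (SD, n = 3 each). The part of mt-Co1 was 27.4% ± 0.0128 in CUMS-Alb, 25.9% ± 1.86 in CUMS-Sal and 28.5% ± 1.43 in Ctrl-Sal (SD, n = 3 each), and the CUMS-Sal libraries overlapped with neither of the others. By library CUMS-Sal held 27.1%, 26.9% and 23.8% for mt-Co1, so replicates 1 and 2 lay close to CUMS-Alb and replicate 3 lowered the mean. Over the 9 mRNAs, no part differed at an adjusted p under 0.3 in any of the 6 comparisons.

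The 9 mRNAs moved together from library to library within groups. As a description, log2 levels were taken after subtracting each group's mean, and Pearson correlations were computed between mRNAs over the 12 libraries, which share depth and scaling with each mRNA. The median correlation was 0.93 among the complex I mRNAs, over 6 pairs, and 0.90 among mt-Cyb, mt-Co1, mt-Co2, mt-Co3 and mt-Atp6, over 10 pairs. It was 0.58 for the 20 pairs that join a complex I mRNA to one of the others, from 0.29 for mt-Nd1 with mt-Cyb to 0.86 for mt-Nd2 with mt-Co2. That gap rested on 1 library: without CUMS-Sal replicate 3 the median of the 20 pairs was 0.89, beside 0.90 within complex I and 0.93 among the others. Without Ctrl-Sal replicate 2 it was 0.54.

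**Figure D5:**
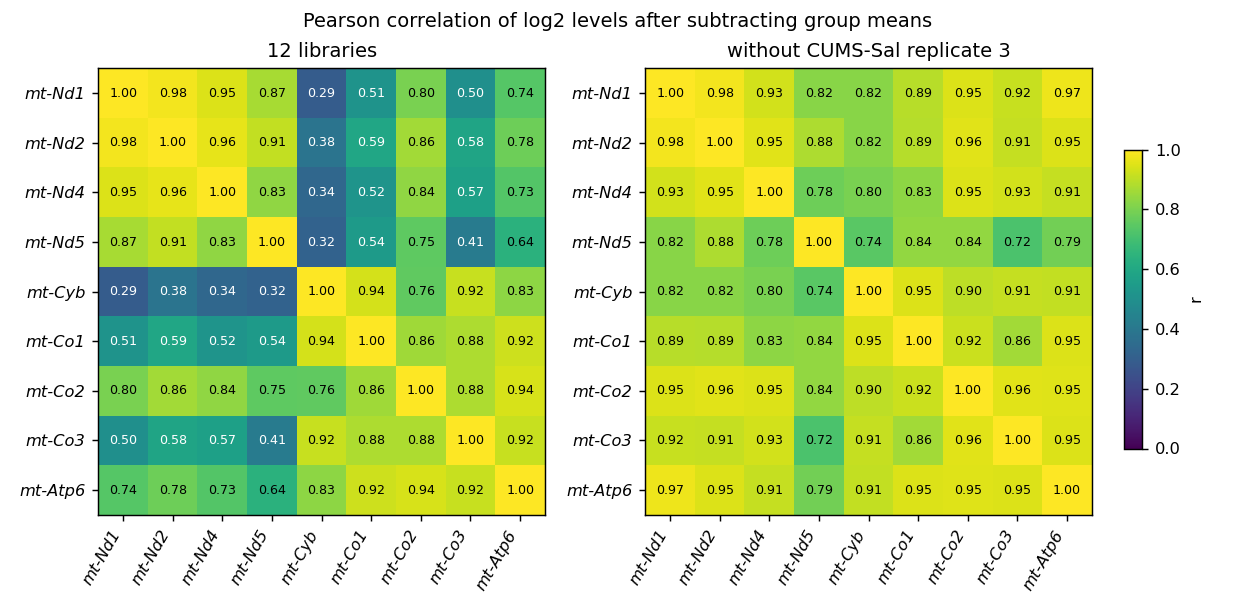
Pearson correlation r between the 9 mRNAs of log2 levels after subtracting group means, over 12 libraries (left) and over 11 libraries without CUMS-Sal replicate 3 (right). The low block between the complex I mRNAs and the other mRNAs on the left, with values down to 0.29, is absent on the right, where the lowest value is 0.72.

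Among the other 15244 rows tested, the level over the 12 libraries was set against the mean log2 level of the 9 mRNAs. Pearson's r was over 0.8 in 271 rows and under -0.8 in 2126, with a median of -0.32. All rows share the library total with the 9 mRNAs, and the part of that in r was not tested. The row most like them, ENSRNOG00000033299, at a length of 204 bp, had an r of 0.98 and averaged 1101 FPKM in CUMS-Alb, 1311 in CUMS-Flx, 1129 in CUMS-Sal and 1822 in Ctrl-Sal. The next, ENSRNOG00000025715, had an r of 0.97. At the other end, ENSRNOG00000016218 and ENSRNOG00000008016 both had an r of -0.98. The 6 rows with the highest r had recovered lengths of 204 to 658 bp, and the 3 with the lowest 2187 to 6876 bp. The 9 mRNAs themselves had 681 to 1830 bp. Whether r depends on length over all rows was not tested. The tenth row by level, next below mt-Nd5, had an r of 0.90 with the 9. None of these IDs was matched to a gene name here. Further mRNAs of the mitochondrial DNA, beyond the 9, may therefore be among these rows, and this was not tested.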

How the data were processed

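The authors deposited a table of expression for 28959 rows and 12 libraries. The unit is not named in it and was taken to be FPKM because, within a row, the deposited values step by whole reads. Per the submitters' processing notes, the tool was TopHat2 and the build rn6; the version, annotation, counter and strand setting are not given in the sources used. Gene lengths, reads and library totals were recovered from the FPKM for 22737 of 22737 rows above 0 (100%), whole meaning within 0.0001 of a read; totals were 14735953 to 18109623.

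The 15253 rows averaging 0.5 FPKM or more were tested on log2(FPKM + 0.5) with limma 3.58.1 in R 4.3.3 (trend and robust settings), all 12 libraries in 1 fit with 1 coefficient per group, Benjamini-Hochberg over all rows. Shares of reads were compared by exact two-sided permutation. The count test on recovered reads was limma-voom with an own TMM step. It kept rows by their mean reads, so its counts of rows called are not out of the 15253. The number of rows it kept is not given here, so no share of rows called is stated for it in any comparison. Scripts were tested on simulated data. No 2 libraries of the same group agreed within counting noise.

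All 9 members were named. Of other rows, the 6 with the highest and the 3 with the lowest correlation with the 9 were to be named, but no more than 2 IDs per direction without a symbol. The members, lists and tests were chosen with earlier results of these data known. The reference annotation used here matched 0 of the table's IDs, so lists of nuclear respiratory chain genes and cell type markers could not be read and were not tested, and no sequence is shown. Alternatives were other scalings, filters, pseudocounts and thresholds, a replicate block, the 2 groups alone and each library left out.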

Additional observations from a re-analysis of the deposited data

How the results depend on the processing

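Libraries with the same replicate number showed no strong shared pattern: 1 of 18 same-numbered pairs of deviations from group means correlated above 0.1 (-0.159 to 0.127). Such low correlations cannot show that the numbers mark no pairs. With a replicate block, CUMS-Sal against Ctrl-Sal had 565 rows and 2 of the 9 mRNAs called in place of 1402 and 6; CUMS-Alb against Ctrl-Sal had 0 and 0 in place of 381 and 1, and CUMS-Flx against Ctrl-Sal 0 rows in place of 8. The share of reads in CUMS-Sal minus Ctrl-Sal stayed at -5.09 points under the block (exact sign-flip p = 0.25, the smallest it can give).

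For CUMS-Sal against Ctrl-Sal, the rows called were 3173 at an adjusted p under 0.1, 740 without trend and robust settings, 529 after quantile normalization, 711 when rescaled to the reads outside the 9, 743 with median deviations set to 0, 251 with no filter and 0 with only the 2 groups. The mRNAs called were 1 without trend and robust settings, 0 after quantile normalization, 1 with no filter and 0 with only the 2 groups. For CUMS-Alb against Ctrl-Sal, in the same order, rows called were 2373, 0, 98, 20, 28, 3 and 1, and 996 at a minimum of 5 FPKM; mRNAs called were 8 at an adjusted p under 0.1, 5 at a minimum of 5 FPKM, 2 with a pseudocount of 1, 7 by limma-voom, and 0 without trend and robust settings, after quantile normalization, when rescaled, with no filter and with only the 2 groups. For CUMS-Flx against Ctrl-Sal, rows called were 129 at an adjusted p under 0.1, 1 without trend and robust settings, 24 after quantile normalization, 3 with no filter, 0 with only the 2 groups and 67 by limma-voom. For CUMS-Flx against CUMS-Sal they were 1 at an adjusted p under 0.1, after quantile normalization, when rescaled, with median deviations set to 0 and with a pseudocount of 0.1, and 5 with only the 2 groups. For CUMS-Alb against CUMS-Sal they were 1 with a pseudocount of 0.1 and 4 with only the 2 groups. For CUMS-Alb against CUMS-Flx they were 0 at a minimum of 5 FPKM and 2 with only the 2 groups, in place of 1. Apart from the calls that a looser threshold adds by construction, the cause of these changes was not tested.

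Quantile normalization sets the values at each rank equal, and there log2 differences changed sign. They were 0.062 for mt-Nd2 and 0.0499 for mt-Cyb in CUMS-Sal against Ctrl-Sal; -0.062 for mt-Nd2, -0.0157 for mt-Co2 and -0.0228 for mt-Cyb in CUMS-Flx against CUMS-Sal; and -0.00962 for mt-Co3 and 0.0228 for mt-Nd4 in CUMS-Alb against CUMS-Sal. In CUMS-Alb against CUMS-Flx they were 0.0157 for mt-Co2, 0.0157 for mt-Atp6, 0.145 for mt-Nd5 and 0.0271 for mt-Cyb. Against Ctrl-Sal they were 0.0241 for mt-Atp6, 0.0157 for mt-Co3 and 0.0271 for mt-Cyb in CUMS-Flx, and 0.0398 for mt-Atp6 and 0.0541 for mt-Cyb in CUMS-Alb. Mt-Nd5 in CUMS-Flx against CUMS-Sal was 0.00102 when rescaled, 0.025 with median deviations set to 0 and 0.0248 by limma-voom. None of these was called. Of the other results for single mRNAs or the complex I part under settings that kept all libraries, 575 kept their direction and side of the threshold, 31 lost their call and 29 gained one. Most of the 575 had no call to lose. Calls could be lost only by the 6 mRNAs called in CUMS-Sal against Ctrl-Sal and the 1 called in CUMS-Alb against Ctrl-Sal.

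With each library left out in turn, rows called ranged over 1 to 2634 for CUMS-Sal against Ctrl-Sal (1 without CUMS-Sal replicate 2), 0 to 1 for CUMS-Flx against CUMS-Sal, 0 to 1 for CUMS-Alb against CUMS-Sal, 0 to 3 for CUMS-Alb against CUMS-Flx, 1 to 543 for CUMS-Flx against Ctrl-Sal and 0 to 2356 for CUMS-Alb against Ctrl-Sal. The mRNAs called ranged over 0 to 9, 0 to 2 and 0 to 9 for CUMS-Sal, CUMS-Flx and CUMS-Alb against Ctrl-Sal. The share of reads in CUMS-Alb minus CUMS-Sal ran from -0.0437 to 0.438 points. Log2 differences crossed 0 in CUMS-Flx against CUMS-Sal for mt-Nd1 (-0.00766 to 0.172), mt-Nd2 (-0.022 to 0.191), mt-Nd4 (-0.00398 to 0.193) and mt-Nd5 (-0.097 to 0.0393); in CUMS-Alb against CUMS-Sal for mt-Nd1 (-0.106 to 0.0254), mt-Nd2 (-0.0986 to 0.0329), mt-Nd4 (-0.113 to 0.0392) and mt-Cyb (-0.0171 to 0.0867); and in CUMS-Alb against CUMS-Flx for mt-Co2 (-0.188 to 0.0391). The complex I part of the mitochondrial reads ran from -0.25 to 2.87 points for CUMS-Sal minus Ctrl-Sal, from -3.02 to 0.105 for CUMS-Flx minus CUMS-Sal and from -0.867 to 0.35 for CUMS-Flx minus Ctrl-Sal.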
